A study of Ovis aries with 36 samples.

Results

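The comparison described here is that of the released infraspinatus of nandrolone-treated and untreated sheep on the day the tendon was repaired. Its members are the 6 libraries titled TR of the arms N22W and CONTROL, 3 animals each, out of 36 libraries in all. Female Swiss Alpine sheep, 2 years old, had the infraspinatus tendon cut from the bone and reattached 16 weeks later. N22W animals received 150 mg of nandrolone decanoate by injection every week from the day of release, so that their TR biopsy followed 16 weeks of drug. By design they were given it for 22 weeks, so it continued through the 6 weeks after repair. CONTROL animals had the same release and no nandrolone, and the labels do not say whether they were given a vehicle. Average body weight is labelled 47.1 ± 0.8 kg for N22W and 45.3 ± 1.9 kg for CONTROL, with the kind of error not stated. The design text gives 6 animals per arm, of which 3 per arm were analysed here. The PRE biopsies of the same animals, taken before release and drug, were used as the baseline of each gene. The third arm, N6W, had no drug before repair and received 150 mg weekly for the 6 weeks after it. No library of the unoperated side was taken at repair, so at TR a difference that nandrolone makes in any muscle and one that it makes in released muscle cannot be told apart.

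The infraspinatus is one of the muscles that hold the head of the humerus in its socket. When its tendon is cut the muscle retracts, carries no load, wastes and is gradually infiltrated by fat and connective tissue. Nandrolone is an anabolic steroid, here given as an ester that is released slowly after injection. It binds the androgen receptor, a transcription factor that on binding a ligand moves into the nucleus and regulates the transcription of its target genes.

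Values are normalised reads: the steps between the deposited values show whole reads that had been scaled by 1 factor in each library. Depth was 18571824 to 43065773 reads in the 6 TR libraries, with 17427 to 18571 genes above 0 among 25197. The PRE and TR libraries of N22W and CONTROL, 12 in all, had been scaled together and stood apart from the other 24: 591 genes lay over 8-fold higher in every one of the 12 than in every one of the 24. At TR they made up 8.34 to 10.2% of all normalised reads in N22W libraries and 9.52 to 12.8% in CONTROL libraries. Both sides of the comparison come from the same set of 12. Genes are given by Ensembl identifier, because no identifier had a name in the tables used. For that reason the tissue could not be checked against marker genes, no list of genes defined by name could be described and no role can be given for a gene.

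After 16 weeks of nandrolone no gene of the released muscle passed the test with limma, while a small number stood far apart between the arms. With limma 0 of 17681 genes passed a false discovery rate of 0.05 (0%), 879 had an unadjusted p under 0.05 (4.97%), and the 2 smallest adjusted p values were both 0.0574. Of those 879, 437 lay higher (2.47%) and 442 lower (2.5%) in N22W. In a bulk biopsy a difference in RNA per cell and one in the number of cells of a type cannot be told apart. edgeR on the recovered reads also called 0 genes (880 at an unadjusted p under 0.05). DESeq2 on the same reads called 66 of the 16295 genes it tested (0.405%), 31 higher (0.19%) and 35 lower (0.215%) in N22W. The DESeq2 count was 23 without CONTROL animal 2902, 42 without CONTROL animal 2903 and 111 without N22W animal 2915. Limma called 4 genes, 1 higher and 3 lower, once the libraries were rescaled by the trimmed mean of M values (TMM). Without a filter it called 2 genes at TR and 22 at PRE, before any drug. DESeq2 was not run on the PRE libraries, so the 66 genes have no count before treatment beside them.

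Differences of at least 2-fold were most frequent among genes of low abundance. All 3 N22W libraries lay above all 3 CONTROL libraries for 950 genes (5.37% of those tested) and below them for 752 (4.25%). Of these, 219 and 192 differed at least 2-fold, and 28 and 26 at least 4-fold. Folds in this paragraph are differences of mean log2(value + 1), which understate those of genes near 0. Among the 3679 genes with a mean under 10 normalised reads, 12.3% differed at least 2-fold. The share was 4.85% of the 4703 genes between 10 and 100 and 1.26% of the 7154 genes between 100 and 1000. It was 0.46% of the 1956 genes between 1000 and 10000 and 0.529% of the 189 genes above. The interquartile range of the log2 differences was −0.38 to 0.45 in the lowest of these bins, −0.12 to 0.12 between 100 and 1000, and wider again, −0.27 to 0.11, in the highest. At 0 in all 3 N22W libraries and above 0 in all 3 CONTROL libraries were 34 genes, and 27 were at 0 in CONTROL and above 0 in N22W. A value of at least 5 in every library of the other arm was reached by 1 of the 34 and 0 of the 27.

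**Figure D1:**
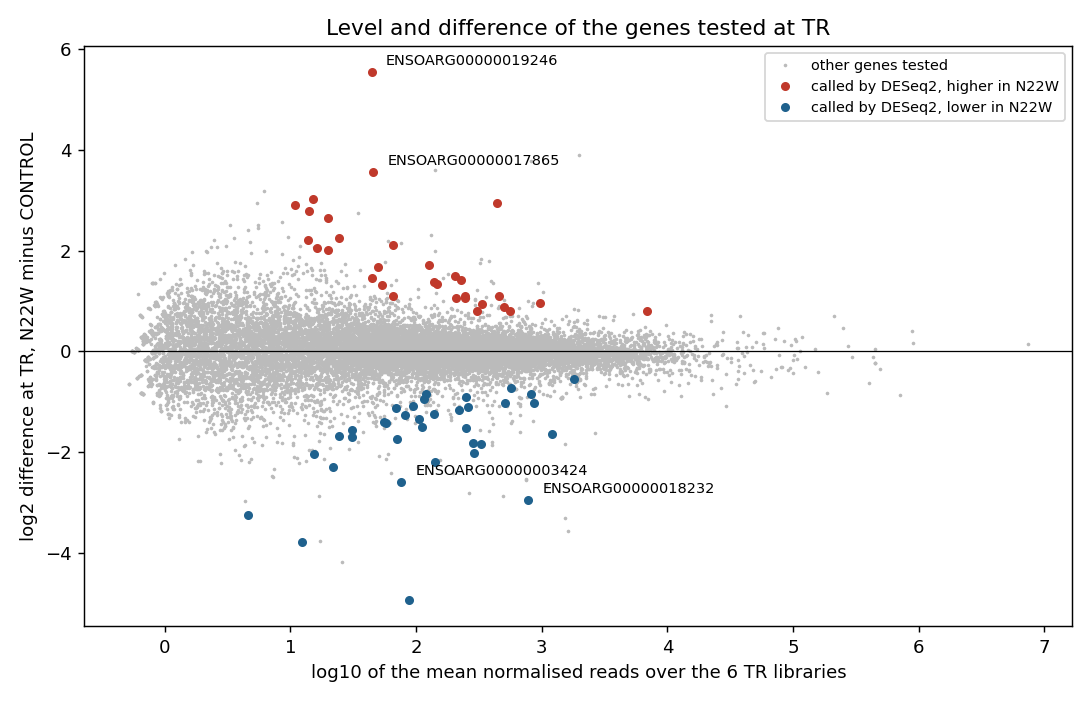
Each point is one of the 17681 genes tested, with the mean level over the 6 TR libraries on a log10 axis across and the log2 difference between N22W and CONTROL up. The 31 genes called higher and 35 called lower by DESeq2 are coloured, and ENSOARG00000019246 stands apart at 5.54; points spread most widely at low levels.

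The gene furthest above CONTROL was close to silent in CONTROL muscle at TR. ENSOARG00000019246 had 71, 48.5 and 143 normalised reads in the TR libraries of N22W animals 2913, 2914 and 2915, against 1.66, 0 and 0.906 in CONTROL animals 2901, 2902 and 2903. Every N22W library lay far above every CONTROL library. The difference was 5.54 on the log2(value + 1) scale (SE 0.52, limma adjusted p = 0.0574), and the ratio of summed reads per size factor was 96.9, with a 95% interval of 32.8 to 473 that covers counting error only, since it rests on 269 reads in N22W and 3 in CONTROL. All 6 PRE libraries of these animals were at 0. The transcript was therefore listed above 0 in 3 of 3 N22W animals at TR and in 2 of 3 CONTROL animals, there with 1 or 2 reads. Under the limma alternatives its adjusted p ran from 0.000804, with the 12 PRE and TR libraries in the fit, to 0.222, with a prior that ignores the mean level, and DESeq2 gave 8.61e-09.

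ENSOARG00000017865 had 86.1, 43 and 124 normalised reads in N22W animals 2913, 2914 and 2915 at TR, against 4.14, 4.72 and 9.06 in CONTROL animals 2901, 2902 and 2903. Group means were 84.5 ± 40.8 in N22W and 5.97 ± 2.69 in CONTROL (SD, n = 3 each), with no overlap. The log2 difference was 3.56 (SE 0.45, limma adjusted p = 0.116), and DESeq2 called it with an adjusted p of 8.52e-09, while adjusted p under the limma and edgeR alternatives ran from 0.0251 to 0.494. At PRE it was already expressed at 3.33 ± 0.991 in N22W and 1.88 ± 0.771 in CONTROL (SD, n = 3 each), a log2 difference of 0.60 (SE 0.36, limma adjusted p = 0.882). Its mean log2 change from PRE to TR was 4.20 ± 1.00 in N22W and 1.25 ± 0.48 in CONTROL.

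On the low side the log2 differences of genes called by DESeq2 went down to −4.94. The gene with the smallest limma p there was ENSOARG00000018232. It had 158, 204 and 142 normalised reads at TR in N22W animals 2913, 2914 and 2915, against 2004, 824 and 1307 in CONTROL animals 2901, 2902 and 2903. The highest N22W library lay well below the lowest CONTROL library. The log2 difference was −2.95 (SE 0.30, limma adjusted p = 0.0574), with adjusted p from 0.0265 to 0.368 under the limma and edgeR alternatives and 8.83e-18 with DESeq2. Before release the animals varied widely: values were 998, 396 and 83.6 in the N22W animals and 1376, 260 and 664 in the CONTROL animals, in the same order. The PRE groups overlapped, with a log2 difference of −0.94 (SE 1.00, limma adjusted p = 0.918). From PRE to TR all 3 CONTROL animals went up, whereas N22W animals 2913 and 2914 went down and 2915 went up, so the 3 treated animals were closer together at TR than before.

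ENSOARG00000003424 had 15, 27.5 and 20.1 normalised reads at TR in N22W animals 2913, 2914 and 2915, against 113, 160 and 118 in CONTROL animals 2901, 2902 and 2903, again without overlap. The log2 difference was −2.60 (SE 0.28, limma adjusted p = 0.0592), with adjusted p from 0.03 to 0.493 under the limma and edgeR alternatives and 2.79e-11 with DESeq2. At PRE the order was slightly the other way, with a log2 difference of 0.24 (SE 0.40, limma adjusted p = 0.951). Each N22W animal had less at TR than at PRE and each CONTROL animal had more, with mean log2 changes of −1.32 ± 0.79 in N22W and 1.53 ± 0.33 in CONTROL (SD, n = 3 each). In N22W animal 2915 the drop was small, from 28.2 to 20.1 normalised reads, and rests on 25 and 15 reads.

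**Figure D2:**
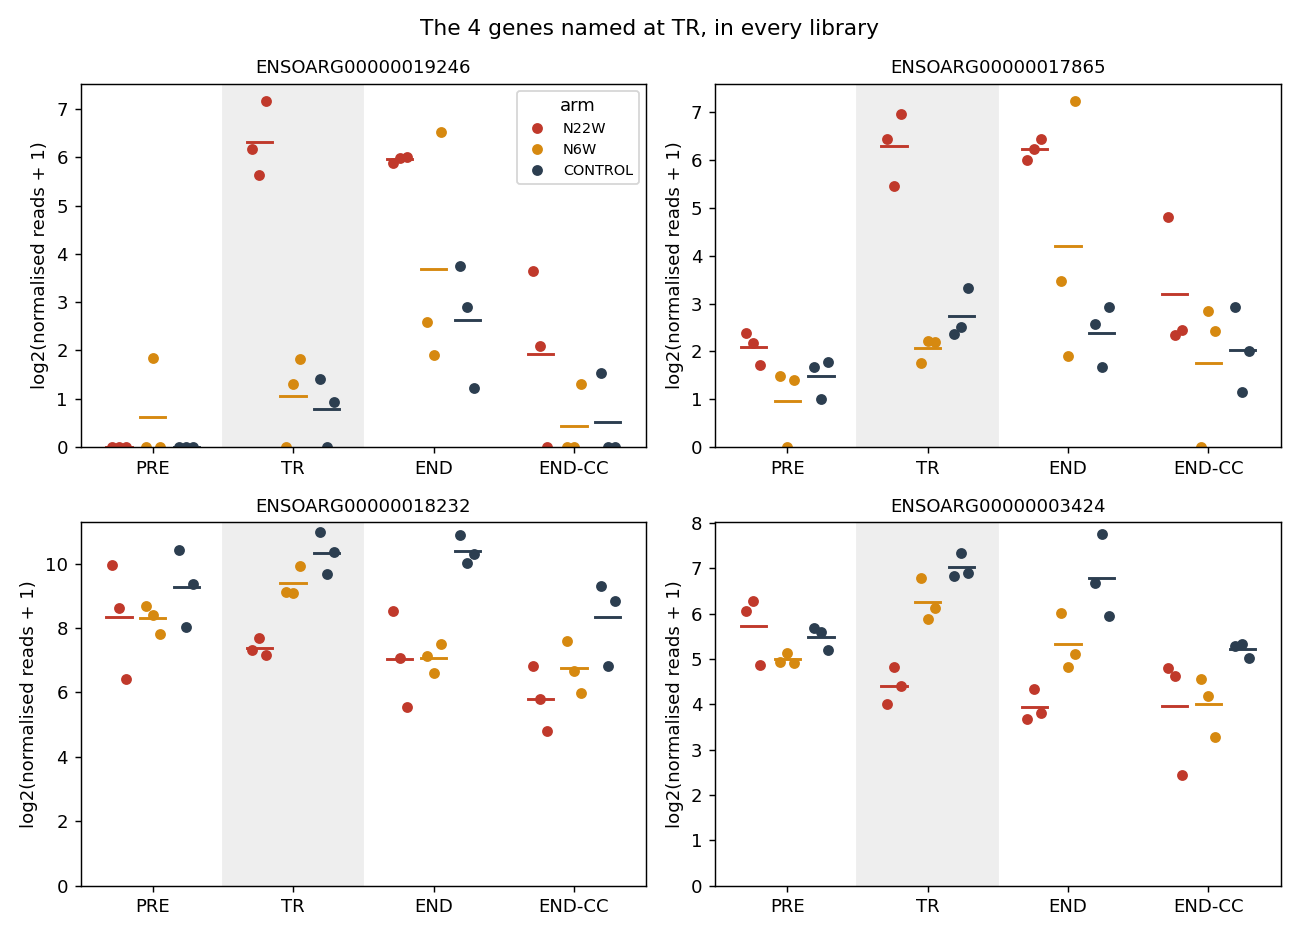
Each panel plots log2(normalised reads + 1) of a gene in all 36 libraries, by time and side, with N22W, N6W and CONTROL animals as points from left to right and the group mean as a bar; the shaded column is TR. At TR the 3 N22W points lie above the 3 CONTROL points for the upper genes and below them for the lower genes, and at PRE the arms overlap or lie close together. PRE and TR of N6W and all END and END-CC libraries were scaled apart from the other 12 libraries.

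The N6W animals, still untreated at TR, were on the CONTROL side for each of these genes, although their libraries belong to the set scaled apart and their levels can only be set beside the others. ENSOARG00000019246 had 0, 1.47 and 2.56 normalised reads in N6W animals 2907, 2908 and 2909 at TR, and ENSOARG00000017865 had 2.39, 3.67 and 3.58. ENSOARG00000018232 had 560, 541 and 976 normalised reads there, and ENSOARG00000003424 had 109, 58 and 68.5. All 3 N6W values of each gene lay outside the range of the N22W values on the side of CONTROL. The change within animals does not depend on the scaling between the sets: from PRE to TR ENSOARG00000003424 had a mean log2 change of 1.27 ± 0.54 in N6W and ENSOARG00000018232 one of 1.07 ± 0.90 (SD, n = 3 each).

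At END, 6 weeks after repair and with N22W still under drug, the same genes were read in other libraries of these animals. In the operated muscle at END, ENSOARG00000019246 had 58.3 to 63.4 normalised reads in N22W and 1.32 to 12.5 in CONTROL, and ENSOARG00000017865 had 63.2 to 85.4 in N22W and 2.17 to 6.6 in CONTROL. In N6W, by then treated for 6 weeks, animal 2909 had 91.4 normalised reads of ENSOARG00000019246 and 150 of ENSOARG00000017865, while animals 2907 and 2908 had 5.05 and 2.74 of the first and 10.1 and 2.74 of the second. On the unoperated side the first gene reached at most 11.6 normalised reads in N22W and 1.9 in CONTROL, and the second 27 in N22W and 6.66 in CONTROL, and both N22W maxima were those of animal 2913. ENSOARG00000018232 lay lower than in CONTROL at END in both treated arms, at 45.6 to 365 in N22W and 95.8 to 180 in N6W against 1027 to 1909 in CONTROL. On the unoperated side it had 26.6 to 113 in N22W, 62.7 to 192 in N6W and 112 to 636 in CONTROL, with overlap between the arms. ENSOARG00000003424 had 11.7 to 19.2 normalised reads at END in N22W, 27.4 to 64 in N6W and 60.7 to 214 in CONTROL, so that N6W overlapped with CONTROL. On the unoperated side it had 4.44 to 27 in N22W, 8.76 to 22.7 in N6W and 31.3 to 39.3 in CONTROL. The N22W and N6W values at END and END-CC are set against the same 3 CONTROL libraries.

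Complete separation of the arms was about as frequent before any treatment as at TR, and at both times close to what equal arms would give. At PRE all 3 N22W libraries lay above all 3 CONTROL libraries for 1041 of the genes tested (5.89%) and below them for 823 (4.65%), and with limma 0 genes passed (0%), with 968 below an unadjusted p of 0.05 (5.47%). Of the 950 genes that were separate and higher in N22W at TR, 63 had been so at PRE, 6.63% of the TR genes and 6.05% of the 1041 PRE genes. Of the 752 that were separate and lower, 39 had been so at PRE, 5.19% of the TR genes and 4.74% of the 823 PRE genes. Across all genes tested, which are no replicates and come from the same animals at both times, the differences at PRE and TR had a Pearson correlation of 0.07. The shares of the TR genes that were separate the same way at PRE were thus close to the 5.89% and 4.65% of all genes tested.

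**Figure D3:**
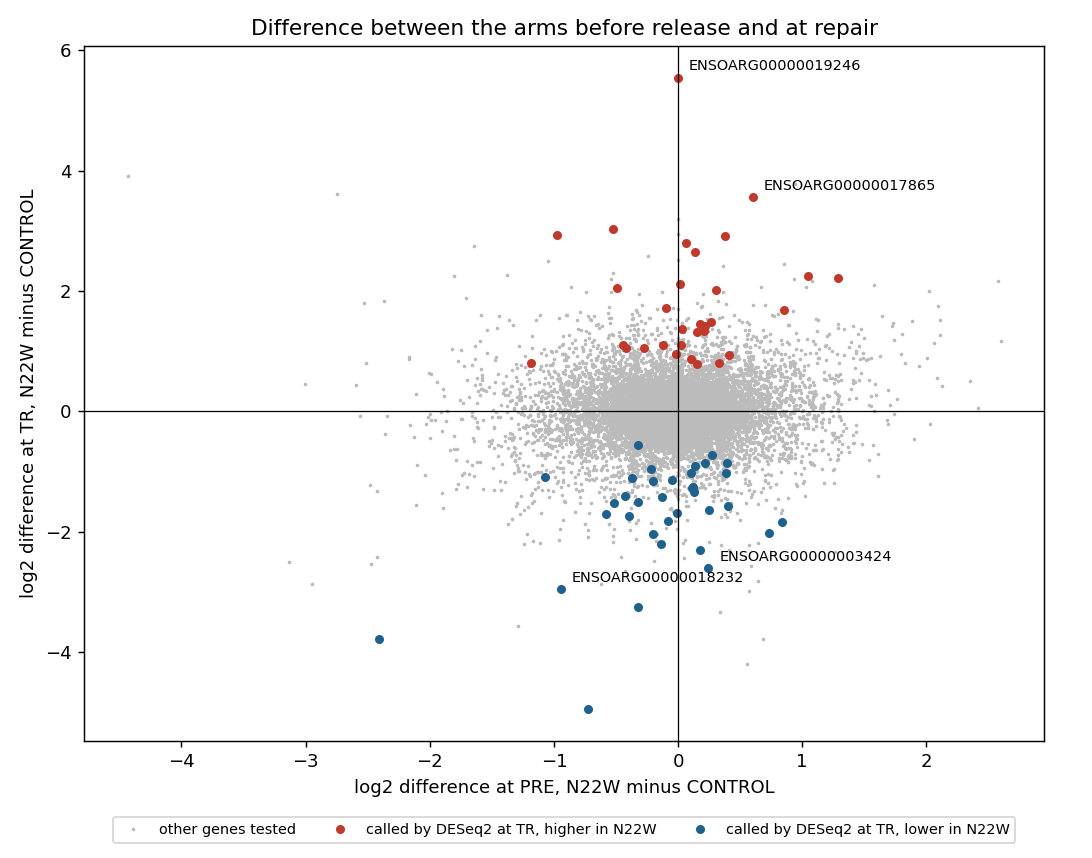
Each point is a gene tested, with the log2 difference between N22W and CONTROL at PRE across and at TR up; genes called by DESeq2 at TR are coloured. The coloured genes lie above and below the centre at TR and mostly near 0 at PRE, with a median PRE difference of 0.11 for the 31 higher and −0.08 for the 35 lower genes.

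Taking the baseline of each animal into account widened the errors of the 4 named genes. In the difference of the PRE to TR changes, N22W minus CONTROL, limma with the animal as a block called 0 genes (0%), with 1176 at an unadjusted p under 0.05 (6.65%). The count was 6 without N22W animal 2914 and 1 without CONTROL animal 2902. ENSOARG00000019246 had a difference of changes of 5.54 (log2, SE 0.70) and ENSOARG00000003424 one of −2.85 (SE 0.42), both with a limma adjusted p of 0.166. Without the animal block the first passed, with a limma adjusted p of 0.0396. For ENSOARG00000017865 it was 2.95 (SE 0.62, limma adjusted p = 0.291) and for ENSOARG00000018232 −2.01 (SE 0.68, limma adjusted p = 0.638), where the PRE spread entered. From PRE to TR 1640 genes (9.28% of those tested) went up in every animal of both arms and 2979 (16.8%) went down in every one. Up in all 3 N22W and down in all 3 CONTROL animals went 161 genes (0.911%). Down in all 3 N22W and up in all 3 CONTROL animals went 175 (0.99%). The TR values are part of these changes, so genes chosen at TR tend to differ in them too. Over all genes tested the N22W changes lay above all 3 CONTROL changes for 975 (5.51%) and below them for 1019 (5.76%), and beyond the N6W changes as well for 208 (1.18%) and 326 (1.84%). Of the 950 genes separate and higher at TR, 294 (30.9%) also had changes above all 3 CONTROL changes, and for 100 (10.5%) the N22W changes lay above the changes of the 3 untreated N6W animals too. Of the 752 genes separate and lower at TR, 275 (36.6%) had changes below all 3 CONTROL changes, and 99 (13.2%) below those of N6W as well.

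The 66 genes called by DESeq2 were of middling abundance, with a median of 128 normalised reads for the 31 higher and 116 for the 35 lower genes. Their limma log2 differences ran from 0.79 to 5.54 above and from 0.56 to 4.94 below CONTROL. The groups did not overlap in 31 of the 31 higher and 34 of the 35 lower genes, which their choice favours. The higher genes had a median log2 change from PRE to TR of 0.98 in N22W and −0.16 in CONTROL. The lower genes had one of −0.56 in N22W and 0.79 in CONTROL. Among the untreated N6W animals, whose libraries did not enter the choice, the medians were 0.43 for the higher and 0.52 for the lower genes. The choice of the genes fixes that the N22W and CONTROL medians part. The N6W median lay between them for both the higher and the lower genes. N22W changes lay outside all 6 untreated changes, in the direction of the call, in 9 of the 31 higher and 13 of the 35 lower genes, against 1.18% and 1.84% of all genes tested. Nothing is read from these counts, since the genes were chosen on the TR values that enter the changes.

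The same 66 genes were then read at END and END-CC, with N22W and N6W both under drug. These are other libraries of the N22W and CONTROL animals, and both treated arms were set against the same CONTROL libraries. For the 31 higher genes the median log2 difference from CONTROL at END was 0.90 in N22W and 0.35 in N6W, with 28 and 26 genes above 0. For the 35 lower genes it was −1.07 in N22W and −0.69 in N6W, with 33 and 28 genes below 0. In unoperated muscle the medians were 0.72 in N22W and −0.08 in N6W for the higher genes, and −0.46 and −0.31 for the lower genes. Over all genes tested the medians of these 4 comparisons ran from −0.01 to 0. N22W and CONTROL animals are the ones on which the genes were chosen. These values therefore describe how the differences stood under continued drug in N22W and are no independent test of the drug.

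**Figure D4:**
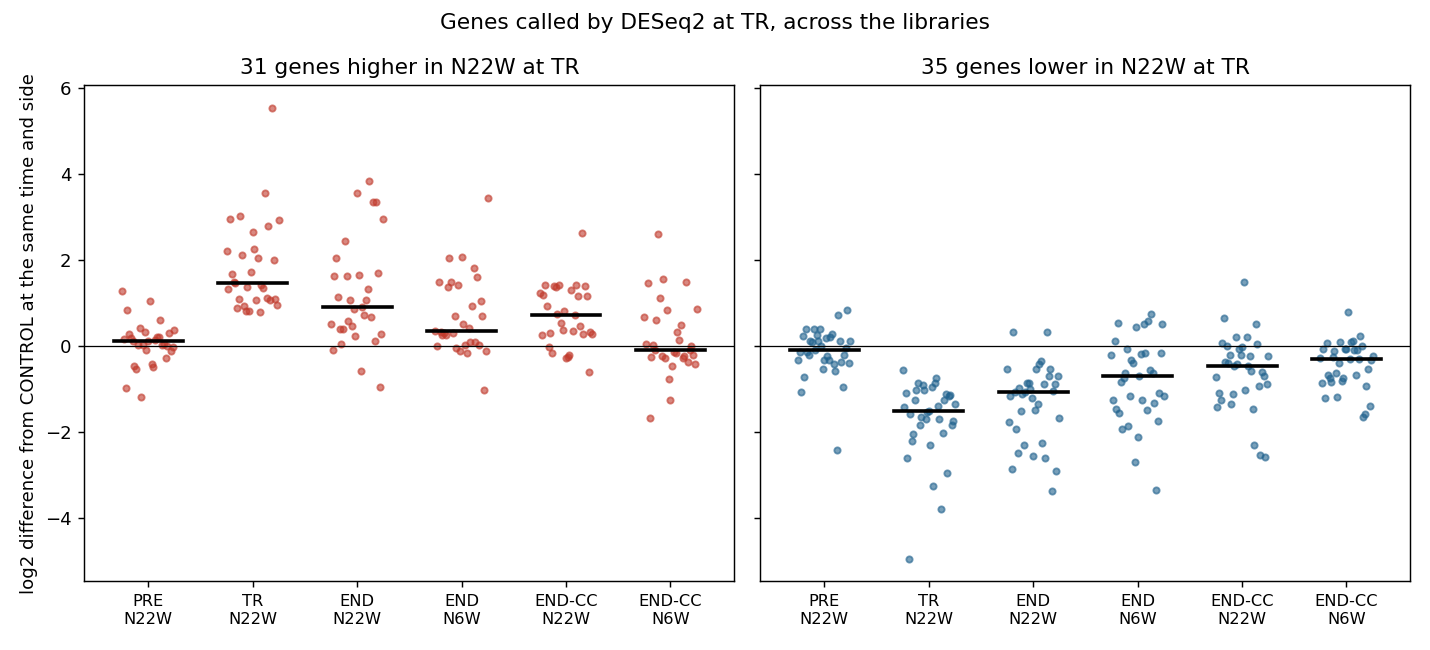
Points are the log2 differences from CONTROL of the 31 higher (left) and 35 lower (right) genes called by DESeq2 at TR, at each time and side for the treated arm named, with the median as a bar. The medians start near 0 at PRE, stand at 1.46 and −1.50 at TR by choice of the genes, and lie on the same side of 0 at END in both arms.

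None of the 50 most abundant transcripts of the muscle differed 2-fold between the arms. At TR the single most abundant gene took 27.1, 32.9 and 24.1% of the summed values in N22W animals 2913, 2914 and 2915, against 26.8, 25.7 and 22.5% in CONTROL animals 2901, 2902 and 2903. The ranges of the arms overlapped. Together the 50 genes made up 59 to 65.5% of each library's normalised reads. Their log2 differences ran from −0.87 to 0.69 with a median of −0.09, and 1 of them, lower in N22W, had no overlap between the arms. For the 37 genes above a mean log2 level of 16 the limma prior was wider than the genes' own spread (median SD 0.62 against 0.33). These 37 are counted among the 17681 genes tested, but no test of a single one of them is given.

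The likeness of libraries within an arm overlapped with that between arms. Over the 14002 genes with a mean of at least 10 normalised reads, Pearson correlations of log2 values at TR ran from 0.957 to 0.973 within N22W, from 0.965 to 0.977 within CONTROL and from 0.958 to 0.975 between them. The first principal component, with 30.4% of the variance, put N22W animal 2913 and CONTROL animal 2903 on one side and the other 4 animals on the other. The second, with 25.4%, had all 3 N22W libraries below the 3 CONTROL libraries, from −39.6 to −4.3 against 0.6 to 32.1. The gap between N22W animal 2915, at −4.3, and CONTROL animal 2901, at 0.6, was narrow. Whether a component parts the arms was not tested. The median SD between animals was 0.251 in N22W and 0.207 in CONTROL at TR, and 0.206 in N22W and 0.214 in CONTROL at PRE.

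Whether the drug changed the response to release itself was asked with genes taken from N6W, whose PRE and TR libraries are not in the comparison. The 100 genes that went up most and the 100 that went down most from PRE to TR in N6W, by moderated t, formed a release score: the mean log2 value of the first minus that of the second. The score at TR was 0.27, −0.19 and 0.67 in N22W animals 2913, 2914 and 2915, against 0.42, 0.43 and −0.12 in CONTROL animals 2901, 2902 and 2903. The means were 0.25 ± 0.43 in N22W and 0.25 ± 0.31 in CONTROL (SD, n = 3 each), with a two-sided exact permutation p of 1 in a test that cannot go below 0.1 for 3 against 3. A shift of both lists the same way cancels in this score. Both lists lay somewhat lower in N22W, as given below, so equal scores do not mean equal levels of these genes. From PRE to TR the score went up by 2.22 ± 0.71 in N22W and 2.13 ± 0.26 in CONTROL, a difference of 0.09 (exact permutation p = 0.9). The animals of the arms overlapped at TR, and 3 animals per arm could not have shown a difference smaller than their spread. Leaving out 1 animal at a time moved the difference at TR between −0.208 and 0.226, with the extremes without N22W animals 2915 and 2914.

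Most release genes had a mean change of the same sign in N22W and in CONTROL as in N6W. Of the 100 genes that went up in N6W, 94 had a positive mean change in N22W and 97 in CONTROL, with medians of 1.04 and 1.25. Of the 100 that went down, 97 had a negative mean change in N22W and 94 in CONTROL, with medians of −0.80 and −0.63. At TR both lists lay somewhat lower in N22W than in CONTROL, with a median log2 difference of −0.23 for the genes that go up and −0.11 for those that go down, against 0.01 over all genes tested. At PRE these medians were −0.06 and −0.03. In the first list 68 of 100 genes had the lower mean in N22W and in the second 62, against 48.9% of all genes tested. Of each list 15 and 8 lay below CONTROL with no overlap, against 4.25% of all genes, and 2 and 1 lay above it, against 5.37%. The genes of a list are no replicates, since all were read in the same 6 libraries. With 1 animal left out the median of the first list ran from −0.41 without N22W animal 2915 to −0.12 without N22W animal 2914, and that of the second from −0.19 without N22W animal 2914 to −0.03 without N22W animal 2913. The mean log2 value of the first list at TR was 8.16, 8.10 and 8.85 in N22W animals 2913, 2914 and 2915 and 8.62, 8.73 and 8.32 in CONTROL animals 2901, 2902 and 2903, so that the arms overlapped: animals 2913 and 2914 lay below every CONTROL animal and animal 2915 above every one. For the second list the values were 7.89, 8.3 and 8.18 in N22W and 8.2, 8.29 and 8.44 in CONTROL, in the same order of animals and again with overlap.

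**Figure D5:**
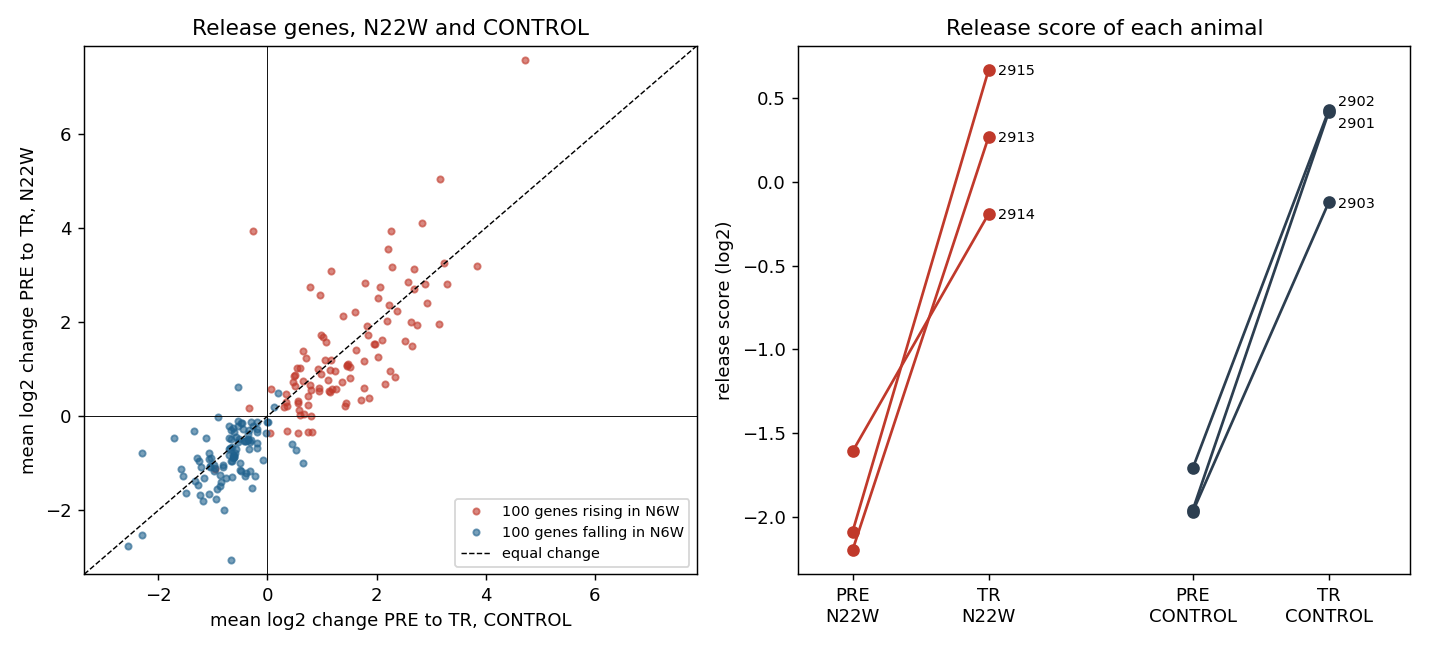
Left, mean log2 change from PRE to TR in CONTROL across and in N22W up for the release genes taken from N6W, 100 each way, with a dashed line at equal change. Right, the release score of each N22W and CONTROL animal at PRE and TR, joined by a line; the TR points of both arms lie between −0.19 and 0.67.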

How the data were processed

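Per the labels' protocols, stranded libraries were made from total RNA of pooled cryosections after ribosomal depletion with human probes. STAR 2.3.0e, R 3.0.2 and the assembly Oar_v3.1 are named in the submitters' processing notes. How reads were counted and scaled, and on which annotation, is not stated there. The deposited signal per gene is a whole multiple of 1 step per library, and 100% of values up to 100 reads came within 0.1 of a multiple, so the signal was read as reads divided by a size factor, and reads were recovered by division by the step. Groups come from the sample titles, since the source field names the same stage for every sample. None of the 25197 identifiers matched the 35057 entries of the RefSeq gene table. TR libraries of an arm were checked for copies: the chi-square per gene between them ran from 65.8 to 167.

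Limma 3.58.1, with a prior that follows the mean level, was run in R 4.3.3 on log2(value + 1) of the 6 TR libraries, keeping the 17681 genes whose median reached 0.5, with the authors' scaling kept. A difference on this scale understates that of genes near the pseudocount. Tests are two-sided with Benjamini-Hochberg adjustment over all genes tested and a threshold of 0.05. The same genes were tested in the 6 PRE libraries, and in the difference of the PRE to TR changes with the animal as a block, since by the series' design each animal was biopsied repeatedly. Deviations from group means of the PRE and TR library of an animal had correlations of 0.18 to 0.43 over 6 animals. The limma script was tested on simulated data. edgeR 4.0.16 and DESeq2 1.42.0 on recovered reads were alternatives. P values rest on the spread between animals, 3 per arm, which limma, edgeR and DESeq2 moderate with that of other genes. In the difference of changes it is the spread of the changes within animals.

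Without names, at most 2 identifiers higher and 2 lower were named: those with the smallest p among genes without overlap between the arms and a mean of at least 10. The samples compared, gene rules and tests were chosen with earlier results of these data known. Descriptions of the genes called by DESeq2, and 4 kinds of alternative, were added once the data had been seen.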

Additional observations from a re-analysis of the deposited data

Results flagged for a closer look

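ENSOARG00000003424 moved in opposite directions from PRE to TR in the 2 arms. It was lower at TR in each of the 3 N22W animals, in animal 2915 on 25 reads at PRE and 15 at TR, and higher in each of the 3 CONTROL animals. The same pattern was seen in 175 genes (0.99% of those tested), and this gene was named for its small p at TR, whose values enter the change. The difference of the changes, N22W minus CONTROL, was −2.85 on the log2 scale, and limma with the animal as a block gave it an adjusted p of 0.166 over 17681 genes, so the test of the difference itself did not pass.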

How the results depend on the processing

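At TR limma called 4 genes with TMM scaling, 4 without the 591 set genes under TMM scaling, 2 without a filter, 3 with the 12 PRE and TR libraries in the fit and 4 with the 9 TR libraries, against 0 in the comparison as reported, and DESeq2 called 66. It called 0 with a pseudocount of 0.5, with a minimum mean of 10 and with a prior without a mean trend, as did edgeR. With 1 animal left out limma called 0 to 2 genes at TR, 0 to 1 at PRE and 0 to 6 in the difference of changes, and DESeq2 23 to 111 at TR. At PRE limma called 22 genes without a filter. Without the replicate block 1 gene, ENSOARG00000019246, passed in the difference of changes. The differences of the 4 named genes at TR kept their sign under these alternatives, and so did their differences of changes, which were not run with edgeR, DESeq2, the 12 or the 9 libraries. At PRE the sign of ENSOARG00000018232 turned without N22W animal 2915 and that of ENSOARG00000003424 without N22W animal 2914: with 1 animal left out the first ran from −1.76 to 0.021 and the second from −0.027 to 0.675. The difference in release score, 0.00333, was −0.000901 with 300 genes each way and ran from −0.208 to 0.226 with 1 animal left out. The cause of these shifts was not tested. With 3 animals per arm and 0 to 3 reads in an arm, depth limits ENSOARG00000019246 and other genes near 0 in CONTROL.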
